A study of Mus musculus with 8 samples.

Results

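The 9 genes described here are transcription factors of the neural crest and pharyngeal arches: Dlx1, Dlx2, Dlx5, Dlx6, Tfap2a, Tfap2b, Sox10, Foxd3 and Ets1. They were taken by symbol, and all 9 were found among the 49315 genes counted in 8 libraries of whole mouse hearts at embryonic day 9.5. The libraries compare wild-type (WT) hearts with hearts homozygous for Tbx20EH1Mut, a germline CRISPR/Cas9 allele made in C57BL/6J-derived embryos. The allele replaces a pair of amino acids in the EH1 domain of the cardiac T-box factor Tbx20, through which the factor binds TLE corepressors, so the comparison asks which heart transcripts differ when that interaction is disrupted. There were 4 libraries of each genotype, each made from 3 pooled hearts, and mice of both sexes were used in the study. The allele is present in every Tbx20-expressing lineage of the embryo, and mutant hearts at this stage have not looped or formed chambers.

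Neural crest cells arise at the border of the neural plate, leave the neural tube and migrate into the pharyngeal arches, from where a cardiac subset enters the outflow tract. Foxd3, Tfap2a and Sox10 act early in this lineage, Sox10 then marking migrating crest and glial precursors. In the arches, nested Dlx expression distinguishes upper from lower jaw territory, with Dlx5 and Dlx6 acting downstream of endothelin signalling. Several of these genes are also used outside the crest: Tfap2a in surface ectoderm, and Ets1 in endothelium. In bulk heart tissue, fewer cells of a type and less RNA per cell cannot be told apart.

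Total counts were 33359322 to 49523086 in the WT libraries and 36250675 to 38357025 in the mutant libraries. Levels are given as CPM (counts scaled to library depth) on TMM-scaled library sizes, on which 3 counts are worth 0.0598 to 0.0938 CPM in a library. A gene was called when the adjusted p of edgeR's quasi-likelihood test was at most 0.05 and the absolute log2 fold change was at least 0.5. Across the 17163 genes tested, 24.6% were called, 12.5% higher and 12.1% lower in the mutant, and in 14.7% every mutant library lay above every WT library. The split of higher against lower calls depends on scaling, with 2148 higher and 2070 lower under TMM, but 2516 and 1566 under upper-quartile scaling. Tbx20 itself, whose counts do not show the edited codons, was at 368 ± 11.1 CPM in WT and 267 ± 44.9 CPM in mutant hearts (SD, n = 4 each). That difference, -0.46 on the log2 scale (adjusted p = 0.0273 by edgeR), is under the fold threshold.

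Among the 9 factors, 7 had enough counts to be tested, and Tfap2b and Foxd3 did not. The test called 1 of the 7 higher in Tbx20EH1Mut hearts, the homeobox gene Dlx6, and none lower. No factor was called lower by DESeq2 or limma-voom either. At an unadjusted p under 0.05 edgeR had 4 factors higher and 0 lower, but the share of all genes at that cut is not given here. Ets1 and Dlx6 were the 2 factors whose mutant libraries all lay above all WT libraries, against 14.7% of all genes tested. The 1 call among 7 stands against the 12.5% of all genes called higher, and the count depended on single libraries: it was 3 without WT replicate 2 (Dlx5, Dlx6 and Tfap2a), 4 without Tbx20EH1Mut replicate 3 (Dlx2, Dlx5, Dlx6 and Tfap2a) and 1 without any other library.

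**Figure D1:**
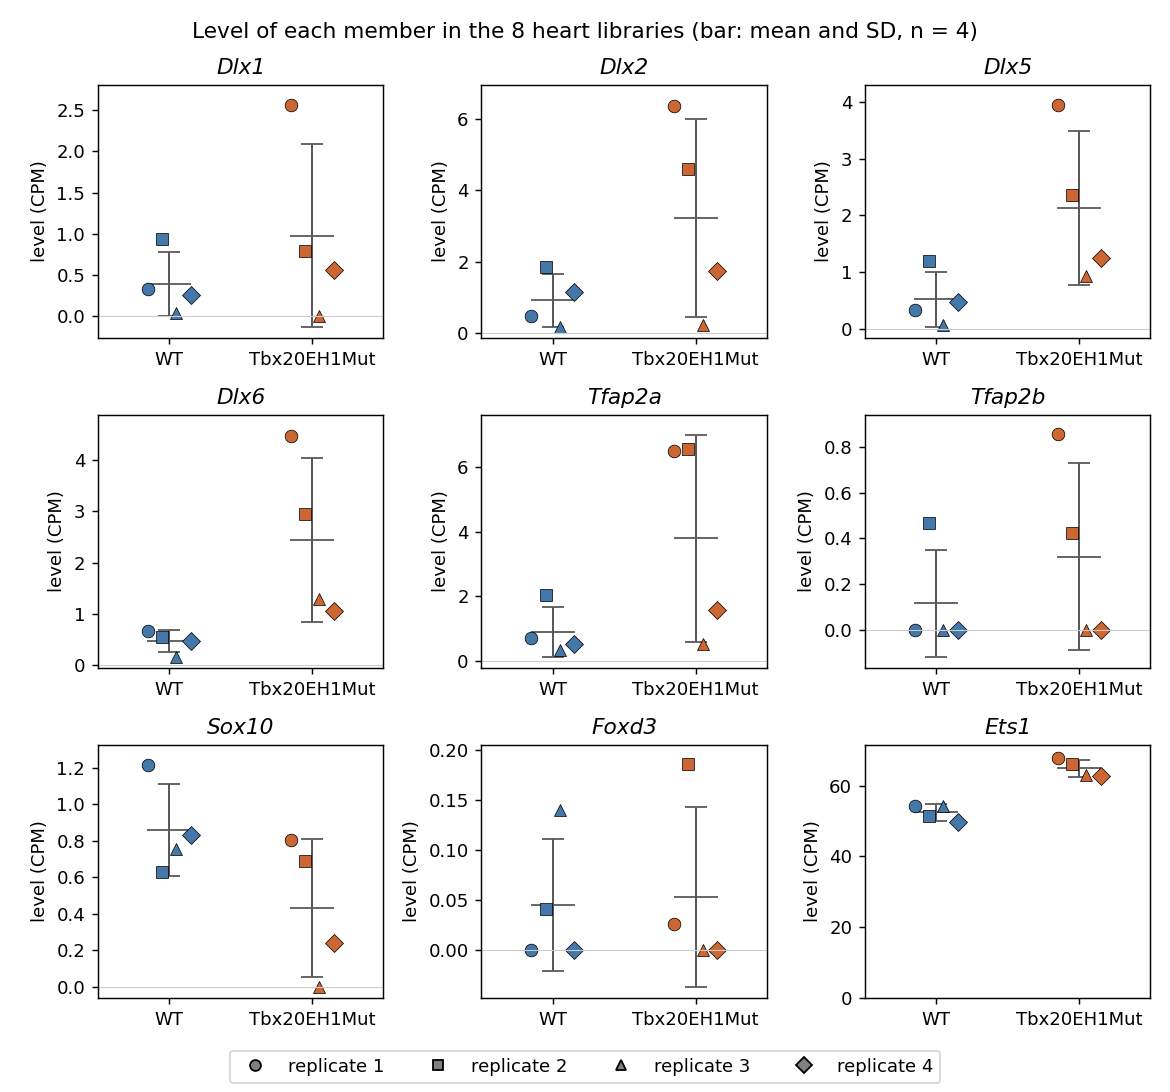
Level of each of the 9 factors in CPM (vertical axes, starting at or below 0 and different for each gene) in the 4 WT and 4 Tbx20EH1Mut libraries, 1 point per library, with the mean and SD as a bar. The groups are separated for Dlx6 and Ets1, and Tbx20EH1Mut replicate 1 is far above replicate 3 for the Dlx genes and Tfap2a.

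The Dlx genes lie in convergent pairs. On GRCm38, the build named in the submitters' processing notes, Dlx1 (ENSMUSG00000041911, chr2:71528113-71533981, plus strand) and Dlx2 (ENSMUSG00000023391, chr2:71543408-71546754, minus strand) are 9426 bases apart. Dlx6 (ENSMUSG00000029754, chr6:6863334-6868568, plus strand) and Dlx5 (ENSMUSG00000029755, chr6:6877805-6882085, minus strand) are 9236 bases apart. Tfap2a (ENSMUSG00000021359) is at chr13:40715675-40733823 on the minus strand. Of the 9 factors, 5 had an entry in the RefSeq promoter table of GRCm38.p6 (Dlx1, Dlx2, Tfap2a, Tfap2b and Foxd3). The 250 bases upstream of the start are shown for Dlx2 and Tfap2a, the pair of factors closest to each other across the 8 libraries, and for Dlx1 as the neighbour of Dlx2, written 5′ to 3′ on the gene's strand at chr2:71546755-71547004, chr13:40733796-40734045 and chr2:71529195-71529444, respectively. Capitals mark matches on either strand to the GC box letters GGGCGG or the CCAAT box letters CCAAT.
Dlx2: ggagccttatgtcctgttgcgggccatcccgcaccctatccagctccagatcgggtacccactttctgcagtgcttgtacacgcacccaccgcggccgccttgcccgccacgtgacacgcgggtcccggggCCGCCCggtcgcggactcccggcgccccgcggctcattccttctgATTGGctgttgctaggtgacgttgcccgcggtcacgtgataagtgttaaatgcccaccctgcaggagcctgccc
Tfap2a: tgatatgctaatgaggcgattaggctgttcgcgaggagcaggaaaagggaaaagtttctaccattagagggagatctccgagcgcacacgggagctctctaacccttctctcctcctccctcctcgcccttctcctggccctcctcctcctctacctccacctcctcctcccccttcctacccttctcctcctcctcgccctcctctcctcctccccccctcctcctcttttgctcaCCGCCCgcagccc
Dlx1: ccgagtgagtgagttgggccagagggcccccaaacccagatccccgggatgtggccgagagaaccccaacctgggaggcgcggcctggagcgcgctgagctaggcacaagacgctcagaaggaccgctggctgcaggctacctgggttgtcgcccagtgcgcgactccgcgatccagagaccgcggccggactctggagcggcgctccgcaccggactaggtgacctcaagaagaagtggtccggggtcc

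The Dlx2 window holds 1 GC box and 1 CCAAT box, the Tfap2a window 1 GC box, and the Dlx1 window neither. Among 32851 RefSeq promoters, 32.7% hold the GC box letters and 33.8% the CCAAT letters in the same 250 bases. The letters AGGTGTG, the core of a T-box element, were not found on either strand in the upstream windows of the 5 factors, and they occur in 5.10% of all such windows. Tfap2a has 2 entries in the table, and the one shown starts nearer to the listed start of the gene. GC content is 66.4% for Dlx2, 68.0% for Dlx1, 65.6% for Foxd3, 46.4% for Tfap2b, and 60.4% and 47.6% for the shown and the other Tfap2a entry, so these windows lie on both sides of the median of all promoters, 52.4%. The 3 printed windows hold 24, 22 and 10 CpG dinucleotides, in the order Dlx2, Dlx1 and Tfap2a, against a median of 6. These matches describe letters only.

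Dlx6, a homeodomain factor of the lower jaw territory, was the factor that rose. Its WT libraries were at 0.668, 0.550, 0.159 and 0.480 CPM, from 8 to 27 counts each, and its mutant libraries at 4.48, 2.95, 1.28 and 1.06 CPM, from 40 to 173 counts. Every mutant library was above every WT library, with mutant replicates 1 and 2 the highest. The means were 0.464 ± 0.217 and 2.44 ± 1.60 CPM (SD, n = 4 each). The log2 fold change was 2.41 (SE 0.563, 95% interval 1.15 to 3.66, adjusted p = 0.0117 by edgeR's quasi-likelihood test). An exact two-sided permutation test over the 70 arrangements gave p = 0.0286, the smallest it can give with 4 against 4. Dlx6 was called in all 8 fits that left out 1 library (adjusted p from 0.0100 to 0.0379) and in the 8 alternatives that kept it (9.70e-05 to 0.0382). Its exons share 104 bases, 4.38% of their length, with Dlx6os2 on the opposite strand, for which 12 counts were listed in all, and the counting tool's strand setting is not given in the sources used here.

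Dlx5, its neighbour and partner in the lower arch, showed a similar mean difference with more overlap. WT libraries were at 0.334, 1.20, 0.0598 and 0.480 CPM and mutant libraries at 3.94, 2.36, 0.938 and 1.25 CPM. WT replicate 2 stood above mutant replicate 3, so the groups overlapped. The means were 0.519 ± 0.487 and 2.12 ± 1.36 CPM (SD, n = 4 each), and the log2 fold change of 2.02 (SE 0.726, 95% interval 0.41 to 3.63) had an adjusted p of 0.0599 by edgeR and an exact permutation p of 0.0571. This value sits beside the threshold, since 5 of 8 alternatives with all libraries called it (adjusted p from 0.0126 to 0.162), as did the fits without WT replicate 2 (0.0216) and without mutant replicate 3 (0.0459). Left-out libraries moved the log2 fold change from 1.54, without mutant replicate 1, to 2.88, without WT replicate 2.

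Dlx2, expressed in crest of all anterior arches, had WT levels of 0.486, 1.85, 0.179 and 1.16 CPM, while the mutant libraries were at 6.37, 4.59, 0.219 and 1.75 CPM. Mutant replicates 1 and 2 were above all WT libraries, whereas mutant replicate 3 was below 3 of them. The log2 fold change was 1.81 (SE 0.871, 95% interval -0.13 to 3.74, adjusted p = 0.139 by edgeR, exact permutation p = 0.229). Only the fit without mutant replicate 3 called it (log2 fold change 2.21, adjusted p = 0.0396). Without mutant replicate 1 the value was 1.26 (adjusted p = 0.331).

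Dlx1, the partner of Dlx2, was counted at 11, 46, 2 and 12 in WT and at 99, 30, 0 and 21 in mutant libraries, which is 0.334, 0.937, 0.0398 and 0.262 CPM against 2.56, 0.797, 0 and 0.557 CPM. The groups overlapped, and mutant replicate 3 had no count, where 3 counts would be 0.0938 CPM. A log2 fold change of 1.31 (SE 1.06, 95% interval -1.04 to 3.66, adjusted p = 0.366 by edgeR) fell to 0.22 without mutant replicate 1 and reached 2.25 without WT replicate 2. Dlx1 shares 335 exonic bases, 6.21% of its length, with Dlx1as on the opposite strand, which held 122 counts where Dlx1 held 221. By genotype, Dlx1as held 85 counts in WT and 37 in mutant libraries, and Dlx1 held 71 and 150. The Dlx1as log2 fold change of -0.97 was not called (adjusted p = 0.214 by edgeR).

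Summed over Dlx1, Dlx2, Dlx5 and Dlx6, the WT libraries held 1.82, 4.54, 0.438 and 2.38 CPM and the mutant libraries 17.4, 10.7, 2.44 and 4.61 CPM. The lowest mutant library thus lay within the WT range, and the means were 2.29 ± 1.71 and 8.78 ± 6.70 CPM (SD, n = 4 each). Mutant replicate 3 took most of its Dlx counts from the chromosome 6 pair, with 71 counts for Dlx5 and Dlx6 and 7 for Dlx1 and Dlx2. The other mutant libraries had 325, 200 and 87 counts for Dlx5 and Dlx6 and 345, 203 and 87 for Dlx1 and Dlx2.

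Tfap2a, an AP-2 factor of neural crest and surface ectoderm, was, among the tested factors, closest to Dlx2 in its pattern over the libraries. WT libraries were at 0.698, 2.04, 0.319 and 0.524 CPM and mutant libraries at 6.50, 6.56, 0.531 and 1.56 CPM. Mutant replicates 1 and 2 were the highest, while mutant replicates 3 and 4 lay inside the WT range. The means of 0.894 ± 0.777 and 3.79 ± 3.19 CPM (SD, n = 4 each) gave a log2 fold change of 2.08 (SE 0.791, 95% interval 0.32 to 3.83, adjusted p = 0.0719 by edgeR, exact permutation p = 0.200). Leaving out WT replicate 2 (adjusted p = 0.0340) or mutant replicate 3 (0.0244) brought the call, and the other 6 such fits did not (0.0811 to 0.167). The log2 fold change ranged from 1.67 without mutant replicate 2 to 2.91 without WT replicate 2.

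Tfap2b (ENSMUSG00000025927, chr1:19208914-19238576, plus strand), its paralogue in crest and ectoderm, was listed at 0 in 5 of the 8 libraries. The counts were 23 in WT replicate 2 and 33 and 16 in mutant replicates 1 and 2, or 0.468, 0.855 and 0.425 CPM. These are the same 3 libraries in which Tfap2a was highest. Tfap2b did not pass the filter, and the groups overlapped (exact permutation p = 0.714).

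Sox10 (ENSMUSG00000033006, chr15:79154913-79164490, minus strand), the SoxE factor of migrating crest and glia, was the single tested factor with a lower mean in the mutant. WT libraries held 40, 31, 38 and 38 counts and mutant libraries 31, 26, 0 and 9 counts. On the CPM scale, mutant replicates 1 and 2 lay inside the WT range, and replicates 3 and 4 lay below it. Means were 0.858 ± 0.251 CPM in WT and 0.433 ± 0.378 CPM in the mutant (SD, n = 4 each). The log2 fold change of -0.96 (SE 0.752, 95% interval -2.63 to 0.71) was not past the test (adjusted p = 0.352 by edgeR, exact permutation p = 0.171). With 1 library left out it ranged from -1.43 without mutant replicate 1 to -0.56 without mutant replicate 3. With all libraries under limma-voom it was -1.81, also not called (adjusted p = 0.147 by limma-voom).

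Foxd3 (ENSMUSG00000067261, chr4:99656299-99658622, plus strand), a forkhead factor of premigratory crest, was near the counting floor. It had 0, 2, 7 and 0 counts in WT and 1, 7, 0 and 0 in mutant libraries. No difference was detectable at this depth (exact permutation p = 0.886), and the sign of the difference in mean CPM changed with the library left out, from -0.0364 without mutant replicate 2 to 0.0394 without WT replicate 3.

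Sox10 and the Dlx genes were unlike each other across libraries. WT replicate 3 held 38 counts of Sox10 and 22 of the 4 Dlx genes, whereas mutant replicate 1 held 31 and 670, and mutant replicate 3 held 0 and 78. As a distance, the root mean square difference of log2 CPM over the 8 libraries, each gene centred on its own mean, was 2.72 for Dlx5 and Sox10, the largest of any pair of tested factors. The smallest were 0.662 for Dlx2 and Tfap2a, 0.687 for Dlx5 and Dlx6 and 0.850 for Dlx5 and Tfap2a, and the neighbours Dlx1 and Dlx2 were at 0.975. Genotype itself and low counts enter all of these distances.

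**Figure D2:**
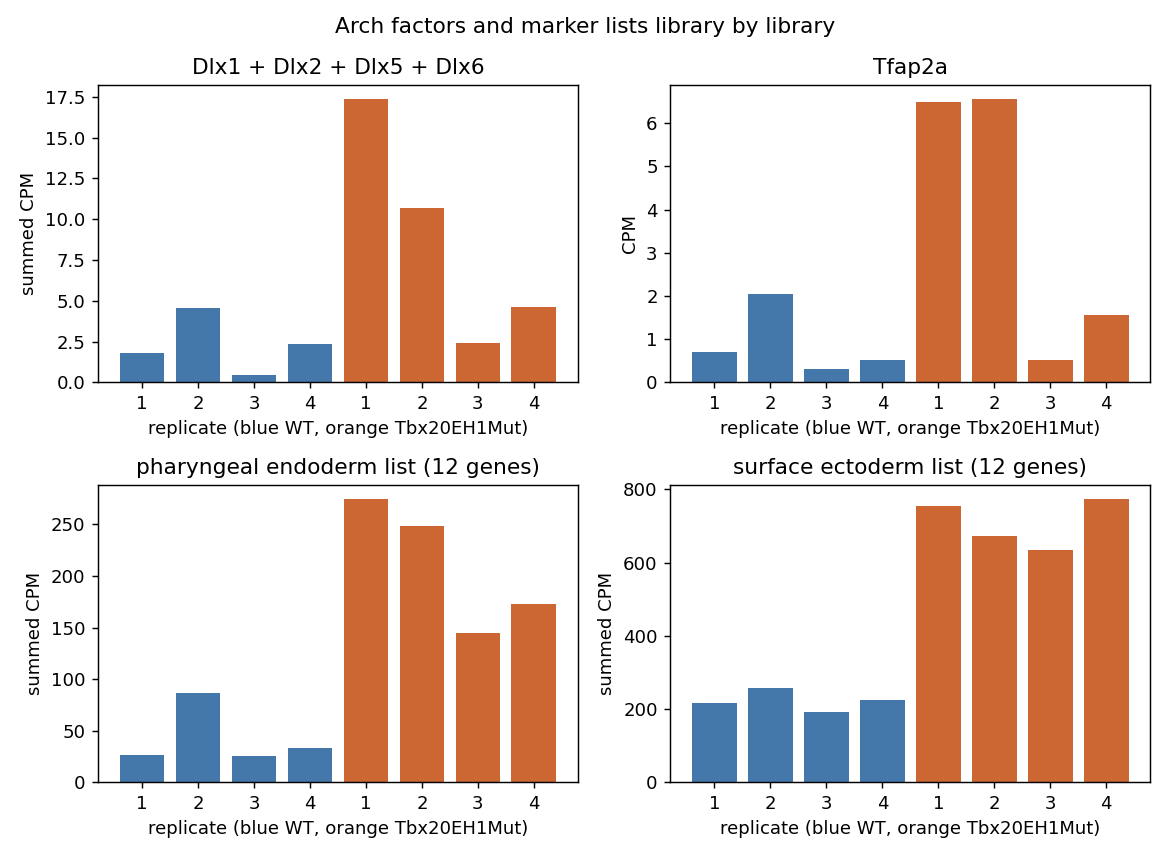
Level of Tfap2a (CPM) and summed CPM of the 4 Dlx genes and of marker lists (vertical axes, starting at 0) in each library, blue for WT and orange for Tbx20EH1Mut replicates 1 to 4. Among WT libraries replicate 2 is highest for the Dlx sum (4.54 CPM) and for pharyngeal endoderm markers (86.1 CPM), and among mutant libraries replicate 1 is highest for both (17.4 and 275 CPM).

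Ets1 (ENSMUSG00000032035, chr9:32636221-32757820, plus strand), an ETS factor of cardiac crest and of endothelium, was by far the most abundant of the 9. WT libraries were at 54.4, 51.4, 54.4 and 49.7 CPM and mutant libraries at 67.9, 66.0, 63.0 and 62.7 CPM. The groups did not overlap, and the spread within each was small, with means of 52.5 ± 2.32 and 64.9 ± 2.52 CPM (SD, n = 4 each). The log2 fold change of 0.31 (SE 0.0898, 95% interval 0.11 to 0.51, exact permutation p = 0.0286) had an adjusted p of 0.0293 by edgeR and stayed under the fold threshold of 0.5, so Ets1 was not called. Its adjusted p was at most 0.05 in 3 of 8 fits without 1 library (0.0294 to 0.108) and in 5 of 9 alternatives, and under library size alone it was 0.101. Under every alternative run, the direction was higher in the mutant, with log2 fold changes from 0.25 to 0.39.

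Endothelial and endocardial markers were read beside Ets1. The summed level of 12 endothelial and endocardial genes was 707 to 902 CPM in WT and 936 to 1021 CPM in mutant libraries, with no overlap (exact permutation p = 0.0286), and 4 of the 12 were called higher, of which Kdr and Sox17 kept the call in all 8 fits without 1 library and Pecam1 and Emcn did not, with a median log2 fold change of 0.15 over the list. Within a genotype the sum did not follow Ets1: WT replicate 1 had the lowest sum, and mutant replicate 4 had the highest sum and the lowest mutant Ets1 level. Sox17, an endothelial SoxF factor, rose from 9.20 ± 1.55 to 33.6 ± 2.26 CPM (SD, n = 4 each), whereas the ETS factor Fli1 was at 18.7 ± 1.46 and 16.7 ± 2.24 CPM. Expressed as a percentage of the endothelial sum, Ets1 was 6.48 ± 0.861% in WT and 6.75 ± 0.471% in mutant hearts (SD, n = 4 each), with overlapping groups (exact permutation p = 0.571). The part of endothelial cell number in the Ets1 difference was not tested.

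**Figure D3:**
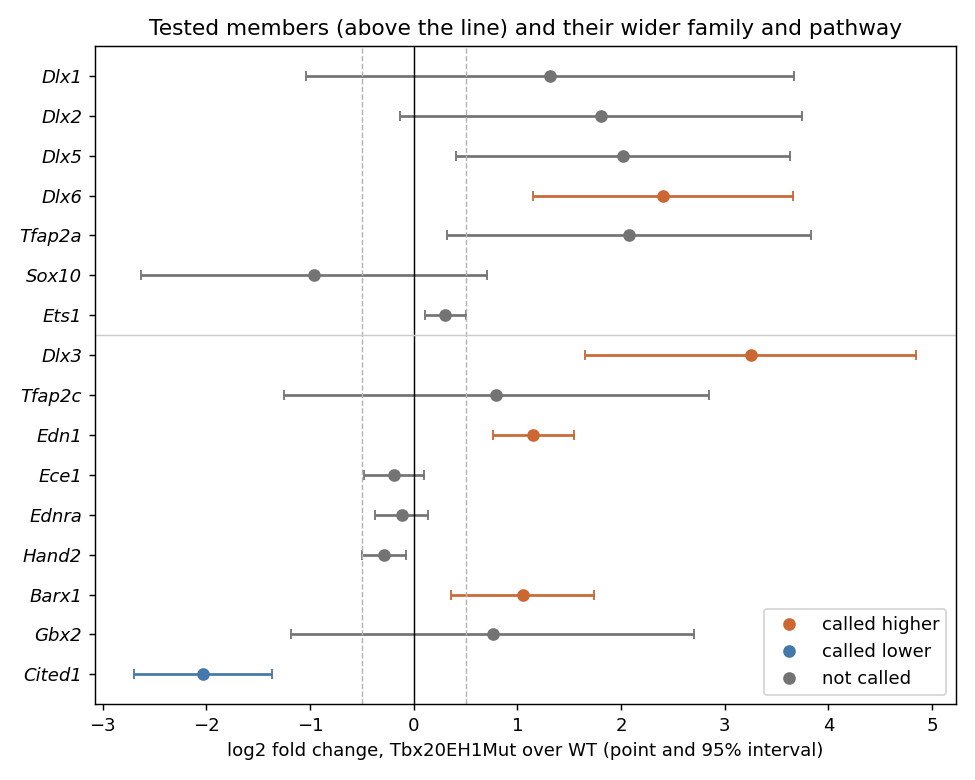
Log2 fold change of Tbx20EH1Mut over WT (horizontal axis) for the 7 tested factors above the line and other arch genes below it, with the 95% interval of edgeR's quasi-likelihood fit and colours for called higher, called lower and not called. Dlx6 is the called factor, at 2.41, and the interval of Ets1 is the narrowest of the 7, from 0.11 to 0.51.

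Levels between genes were compared per kilobase of listed exon length (RPKM). In WT hearts the order of mean RPKM was Ets1 at 6.19, Dlx2 at 0.322, Sox10 at 0.316, Tfap2a at 0.276, Dlx5 at 0.229, Dlx6 at 0.195, Dlx1 at 0.0729, Foxd3 at 0.0194 and Tfap2b at 0.0185. In mutant hearts it was Ets1 at 7.66, Tfap2a at 1.17, Dlx2 at 1.13, Dlx6 at 1.03, Dlx5 at 0.937, Dlx1 at 0.181, Sox10 at 0.160, Tfap2b at 0.0505 and Foxd3 at 0.0228. Ets1 was separated from the next gene in both genotypes, and all other neighbours in either order had overlapping ranges.

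Some genes of the whole table followed the library pattern of a factor closely. Over 8 libraries and 12591 genes of at least 1 CPM, the nearest to Dlx6 by the same root mean square distance were the epithelial genes Cldn3 (0.316) and Spint2 (0.413), and the nearest to Dlx5 was the homeobox gene Nkx2-6 (0.592). Tfap2a was nearest to Edn3 (0.466) and Foxa3 (0.485), and Dlx2 to Sp5 (0.577) and Edn3 (0.605). For Dlx1 they were Pax8 (0.887) and Krt7 (0.958), and for Sox10 P4ha3 (0.581) and Zfp433 (0.718). The closest were those of Ets1, Shf (0.0510) and Rpap2 (0.0531), where the median over all compared genes was 0.355, against 1.45 for Dlx6 and 1.59 for Tfap2a.

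Other genes of the Dlx and AP-2 families were read in the same way. Dlx3, a distal arch and ectoderm gene, was at 0.455, 0.713, 0.120 and 0.196 CPM in WT and at 6.24, 4.83, 0.688 and 2.36 CPM in mutant libraries. Mutant replicate 3 lay just below WT replicate 2, and the log2 fold change of 3.25 (SE 0.720, adjusted p = 0.00933 by edgeR) was called in all 8 fits without 1 library. Tfap2c was not called (log2 fold change 0.80, adjusted p = 0.534 by edgeR), and Dlx4, Tfap2d and Tfap2e were too low to be tested. Dlx6os1, an RNA at the Dlx5 and Dlx6 locus that shares 0 exonic bases with Dlx6, was not tested either, but its levels of 0.0303, 0.183, 0.0996 and 0.109 CPM in WT and 1.35, 0.797, 0.281 and 0.292 CPM in mutant libraries did not overlap (exact permutation p = 0.0286).

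In the endothelin and mandibular arch list, 8 of 11 genes were tested, of which 3 were called higher and 1 lower, with a median log2 fold change of 0.32 against 0.00 for all genes. Edn1, the ligand, rose from 13.6 ± 3.08 to 30.2 ± 4.54 CPM (SD, n = 4 each, log2 fold change 1.16, adjusted p = 0.00167 by edgeR), with no overlap. Its receptor Ednra, at 61.9 ± 6.71 and 57.1 ± 4.88 CPM, and the converting enzyme Ece1, at 213 ± 31.5 and 187 ± 17.4 CPM, were not called (adjusted p = 0.460 and 0.291 by edgeR). Among targets, Barx1 was higher (log2 fold change 1.05, adjusted p = 0.0309 by edgeR), a call kept in 3 of 8 fits without 1 library, and Dlx3 is described above. Cited1 fell from 134 ± 60.7 to 32.8 ± 7.80 CPM (-2.04 on the log2 scale, adjusted p = 0.00138 by edgeR). The WT mean of Dlx6 was 0.464 CPM, and the part of arch cells in the Cited1 level was not tested. Hand2, which is also expressed in the heart itself, was at 186 ± 3.05 and 152 ± 9.19 CPM, a change of -0.29 that is under the fold threshold (adjusted p = 0.0437 by edgeR).

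Markers of crest gave no common direction. Of 12 other neural crest specifiers, 8 were tested, with Snai2 and Id3 called higher (log2 fold changes 1.28 and 0.89, adjusted p = 0.0106 and 0.00827 by edgeR) and Msx1 lower (-1.21, adjusted p = 0.00159), a median of -0.12. Their summed level was 245 to 409 CPM in WT and 375 to 442 CPM in mutant libraries, and the early crest genes Pax3, Pax7, Zic1 and Wnt1 were too low to be tested. Of 12 genes of migrating crest and glial precursors, 8 were tested, and Mitf, a melanocyte lineage factor, was called lower (log2 fold change -0.69, adjusted p = 0.00375 by edgeR). That list, to which Sox10 belongs by its role, summed to 96.0 to 116 CPM in WT and 85.1 to 99.9 CPM in mutant libraries, with overlapping groups.

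Marker lists of pharyngeal endoderm and surface ectoderm were read beside the Dlx genes and Tfap2a. Of 12 pharyngeal endoderm genes, 11 were tested and 4 called higher (Foxa2, Fgf8, Hhex and Epcam), and the median log2 fold change was 2.24. Fgf8 and Hhex kept the call in all 8 fits without 1 library, Foxa2 in 2 and Epcam in 3. The study counts Fgf8 among markers of cardiac progenitors, so its level in this list is not particular to endoderm. Their summed level was 26.2, 86.1, 25.8 and 33.5 CPM in WT and 275, 249, 145 and 172 CPM in mutant libraries. WT replicate 2 and mutant replicates 1 and 2 were thus the highest of their genotypes, as they were for Tfap2a and Tfap2b. In mutant replicate 3, Fgf8 alone made up 101 CPM of the sum. Without the most abundant gene of each library, the WT libraries were at 15.2, 65.3, 13.6 and 21.7 CPM. The mutant libraries were then at 199, 181, 43.6 and 88.7 CPM. The gene left out differed between libraries, being Fgf8 in mutant replicate 3, Epcam in mutant replicate 1 and Cldn6 in WT replicate 2. These reduced sums therefore cover unlike genes and do not rank the libraries against each other. Of 12 surface ectoderm genes, 8 were tested and 4 called higher (Krt8, Krt18, Wnt6 and Cldn7, of which Krt8 and Krt18 kept the call in all 8 fits without 1 library), and the sum was 191 to 257 CPM in WT and 634 to 774 CPM in mutant libraries, mostly Krt8 and Krt18. Mutant replicate 4 had the highest sum, but without the most abundant gene of each library the mutant libraries were at 327, 277, 206 and 248 CPM, with replicate 1 the highest, as in the Dlx sum. Trp63, a defining marker of surface ectoderm, had 0, 6, 1 and 1 counts in WT and 60, 147, 1 and 20 in mutant libraries. Its groups overlapped, with mutant replicate 3 at 0.0313 CPM and WT replicate 2 at 0.122 CPM. Trp63, Krt5, Krt14 and Krt15 were too low to be tested.

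Arch mesenchyme markers moved less evenly. Of 16, 15 were tested, 5 called higher (among them Alx1, Barx1, Hoxa2 and Foxf1) and 1 lower (Msx1), and Alx1, Hoxa2 and Msx1 kept the call in all 8 fits without 1 library. Hoxa2, a homeobox gene of the second arch, rose from 1.24 ± 0.738 to 8.46 ± 2.55 CPM, and the abundant Prrx2 was at 104 ± 11.9 and 108 ± 3.98 CPM (SD, n = 4 each). The summed level was 190 to 219 CPM in WT and 180 to 288 CPM in mutant libraries, and mutant replicate 1, the library with the most Dlx counts, was the highest. Pharyngeal core mesoderm genes, among which Isl1 was called higher with all libraries and in all 8 fits without 1 library, summed to 86.3 to 137 CPM in WT and 179 to 308 CPM in mutant libraries, where replicate 3 was highest. Neural tube genes, with 2 of 8 tested called higher and 1 lower, of which Pax6 kept the call in all 8 fits without 1 library and Nkx6-1 and Tubb3 did not, summed to 21.1 to 35.8 and 20.0 to 26.9 CPM, and cardiomyocyte genes, with 1 of 10 called lower (Actn2, a call kept in 1 of 8 fits without 1 library), to 24928 to 32373 and 23739 to 35528 CPM. Erythroid genes, 8 of 8 called lower, summed to 1863 to 4956 and 352 to 1099 CPM. The part of neighbouring tissue in the levels of the Dlx genes and Tfap2a was not tested. Genes named here beyond the largest, smallest and most abundant of each list were chosen after their values were seen.

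**Figure D4:**
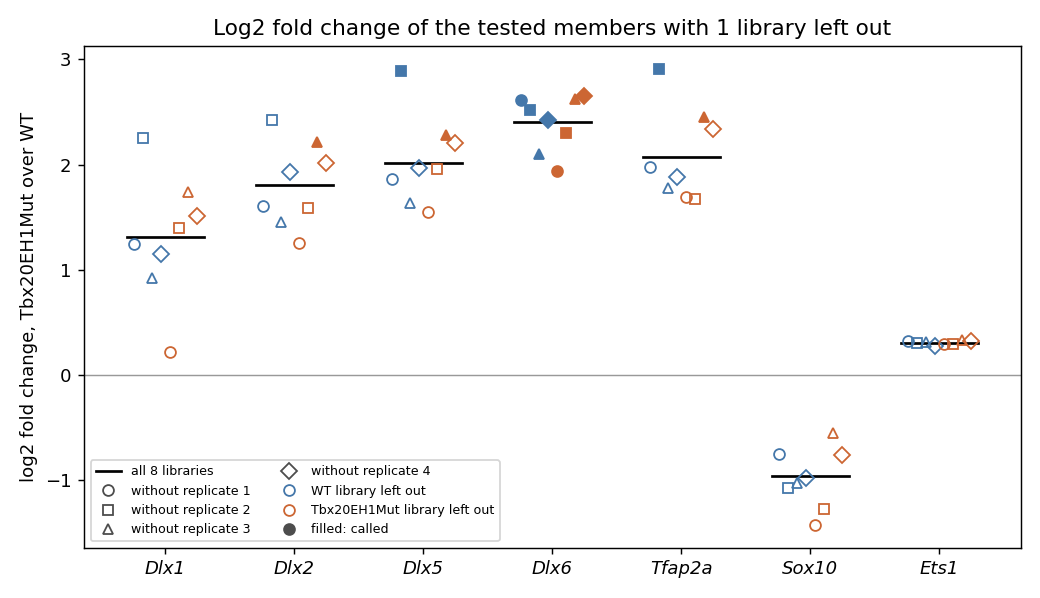
Log2 fold change of Tbx20EH1Mut over WT (vertical axis) for the 7 tested factors, with all 8 libraries and with each library left out in turn. Dlx6 stays between 1.94 and 2.65 and Ets1 between 0.27 and 0.33, while Dlx1 runs from 0.22 to 2.25.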

How the data were processed

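Whole-heart poly-A RNA was prepared and sequenced by a company. The authors deposited raw counts per Ensembl gene, 1 table per library, on GRCm38. The submitters' processing notes name Trimmomatic 0.36 and STAR 2.5.2b, while the counting tool and its strand setting are not given in the sources used here. Of 49315 genes, 48970 matched a GENCODE M21 symbol, and the symbol Dlx6os1, which fits 2 identifiers, was read at the longer one. Counts were filtered with filterByExpr, scaled by TMM and tested in edgeR 4.0.16 (R 4.3.3) (glmQLFit, glmQLFTest) on genotype alone. Benjamini-Hochberg adjustment covered the 17163 genes tested, and a call needed both an adjusted p within 0.05 and a log2 difference of 0.5 or more in size. The steps were tested on simulated data. Single values were compared by exact two-sided permutation. Alternatives were RLE, upper-quartile and library-size scaling, DESeq2 1.42.0, limma-voom (limma 3.58.1), glmTreat, no filter, a minimum of 10 counts per library, a replicate block and each library left out. The rule for named genes gives the 9 factors, Tbx20, the endothelin and family lists, the extremes and most abundant gene of each other list, and the 2 nearest genes to each tested factor. Other genes were named after their values were seen, and some genes are not reported here. The factors and lists were chosen with earlier results of these data known. P-values measure the spread between pools of 3 hearts. Counting floors cover counting error only.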

Additional observations from a re-analysis of the deposited data

Results flagged for a closer look

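Within 18 groups of 4 libraries, 2 had a library far from the rest, where chance flags about 1 group in 20. Tfap2b stood at 0.468 CPM in WT replicate 2 and at 0 in the other 3 WT libraries. Foxd3 stood at 0.186 CPM in Tbx20EH1Mut replicate 2 and at 0, 0 and 0.0259 CPM in the other mutant libraries. Both values rest on few counts, 23 and 7.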

How the results depend on the processing

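The number of factors called higher, 1 with all libraries under the TMM fit, was 2 with upper-quartile scaling, DESeq2, limma-voom and no filter, in each case Dlx5 beside Dlx6. It was 0 with at least 10 counts in every library, a filter that keeps only Tfap2a and Ets1, both at an unadjusted edgeR p under 0.05. It ranged from 1 to 4 with 1 library left out. No factor was called lower in any fit. Over all genes, glmTreat against a log2 fold change of 0.5 called 745 higher and 475 lower, and leaving out 1 library gave 1375 to 2948 higher and 1376 to 2719 lower. The fold changes of the 7 tested factors kept their sign in all fits, and 11 single-factor fits, all for Dlx2, Dlx5 or Tfap2a, newly passed the threshold.

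With the replicate number as a replicate block, 3 factors were called higher (Dlx5, Dlx6 and Tfap2a), and 1910 genes higher and 1771 lower. The labels do not state that same-numbered libraries are paired. Deviations of same-numbered libraries correlated at -0.25, 0.32, 0.04 and 0.06, which cannot decide whether any of them share a litter or batch. Depth limits Tfap2b and Foxd3, at 0 in 5 and 4 libraries, and Dlx1, at 221 counts in all. It also limits Sox10, at 147 counts over the WT libraries and 66 over the mutant libraries.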
